A study of Homo sapiens with 15 samples.

Results

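The PARP family and PARG were described in LNCaP, a human cell line from a prostate cancer that still responds to androgen. The members are 10 genes taken by symbol from the expression table, namely PARP1, PARP2, PARP3, PARP4, PARP8, PARP9, PARP10, PARP12, PARP14 and PARG, out of 17272 genes with a row. All 10 members passed the filter on low values (a mean of at least 0.5 CPM over all libraries), which left 17046 genes to be tested. Polyadenylated RNA was sequenced in 15 libraries. In both groups, cells had been kept for 2 days in medium with charcoal-stripped serum, which is depleted of steroids, and were then given the synthetic androgen R1881 at 1 nM. The 10 R1881 libraries carried DMSO as the vehicle, and the 5 R1881 + enzalutamide libraries carried the androgen receptor inhibitor enzalutamide at 2 µM. All cells were harvested after 22 h. Every library came from the same cell line, so the values describe this line only. The study's methods call the replicates biological but give the group sizes the other way round from the sample labels, which were used here, and what separated the replicates is not described further.

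PARP enzymes take ADP-ribose from NAD+ and attach it to proteins and nucleic acids. PARP1 and PARP2 are switched on by DNA breaks and build chains of poly(ADP-ribose), which recruit repair factors, while most of the other members attach single ADP-ribose units. PARG is the main enzyme that degrades the chains. PARP9, PARP12 and PARP14 are known as interferon-stimulated genes, and inhibitors of PARP1 and PARP2 are used against prostate cancers with defects in DNA repair. In this setting, the question was how the RNA of these genes differed when the androgen receptor was blocked in androgen-treated cells.

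The members named above as interferon-stimulated, PARP9, PARP12 and PARP14, carry a recognisable stretch of DNA just before the start used here. It is shown because these members did not move together. The core of an interferon-stimulated response element was searched, as GAAA, 2 bases of any kind and GAAA, on both strands. The window was the 250 bases before the start of the canonical transcript in GENCODE v44, using RefSeq sequences on GRCh38.p14. For several members, among them PARP8, PARP9 and PARG, this start lies inside the span of the gene given below. PARP9 had 2 windows and PARP8 had 3, and other starts of a member were not searched. Windows were found for 8 members, and PARP4 and PARP10 had no entry. The core was present in the windows of PARP9, PARP12 and PARP14 and in 3.02% of all 34788 windows. In the sequences, read 5′ to 3′ on the strand of the gene, capitals mark the core.
PARP9, chr3:122564322-122564351, minus strand: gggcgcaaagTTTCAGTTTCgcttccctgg
PARP12, chr7:140062952-140062981, minus strand: tttcgccggcccggggccgcTTTCGGTTTC
PARP14, chr3:122680800-122680829, plus strand: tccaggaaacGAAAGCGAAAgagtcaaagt
The core began 41 bases before the canonical start in PARP9, 10 bases before it in PARP12 and 29 bases before it in PARP14. In PARP9 it lies inside the span of the gene. The stretch of PARP9 also spans the annotated start of DTX3L, its neighbour transcribed in the opposite direction. The PARP14 window held a further motif, TTCCNGGAA, the gamma-activated site, which was present in 0.972% of all windows.

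A further pair of upstream stretches is given for PARP1, the member with the highest level, and for PARP8, the member with the largest change. Each lies before the start of the canonical transcript, and that of PARP8 lies inside the span of the gene. Capitals in PARP1 mark AGAACA, the core of an androgen receptor binding site.
PARP1, chr1:226408155-226408343, minus strand: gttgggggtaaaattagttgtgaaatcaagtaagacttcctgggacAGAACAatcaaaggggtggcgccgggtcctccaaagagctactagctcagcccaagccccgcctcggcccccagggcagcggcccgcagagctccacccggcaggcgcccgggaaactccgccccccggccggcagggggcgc
PARP8, chr5:50666463-50666636, plus strand: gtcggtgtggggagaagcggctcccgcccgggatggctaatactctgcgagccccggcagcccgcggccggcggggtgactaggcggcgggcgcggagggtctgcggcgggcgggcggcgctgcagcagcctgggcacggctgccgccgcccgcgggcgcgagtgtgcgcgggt
AGAACA or its reverse complement was present in the windows of PARP1 and PARP2 and in 12.4% of all windows. The longer element, AGAACA and TGTTCT with 3 bases of any kind between them, was present in no member's window. The E2F sites TTTCCCGC and TTTGGCGC, which are known from S phase genes and were present in 1.39% and 0.549% of all windows, were found in no member's window either. A match describes these letters only and is not evidence of binding.

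With enzalutamide, 3 members fell, 3 rose and 4 did not pass the test. PARP1, PARP2 and PARG were downregulated, and PARP3, PARP8 and PARP14 were upregulated. The test was limma on log2(CPM + 0.5) with Benjamini-Hochberg adjustment over all 17046 genes and a threshold of 0.05. The called share of the members, 60%, was close to the share called over all genes, 62.5% (32.7% in the lower and 29.8% in the higher direction). In the same 6 members no value of one group fell within the range of the other, which held for 37.2% of all genes (20.1% lower and 17.1% higher). The median log2 fold change of the members was 0.09, beside -0.01 over all genes. Only PARP8 changed more than 1.5-fold by the fitted value, and the share of all genes beyond this limit was not taken. The 0.5 CPM added before taking logs understates changes of low genes, and the median of PARP14 was 56.9% higher with enzalutamide.

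**Figure D1:**
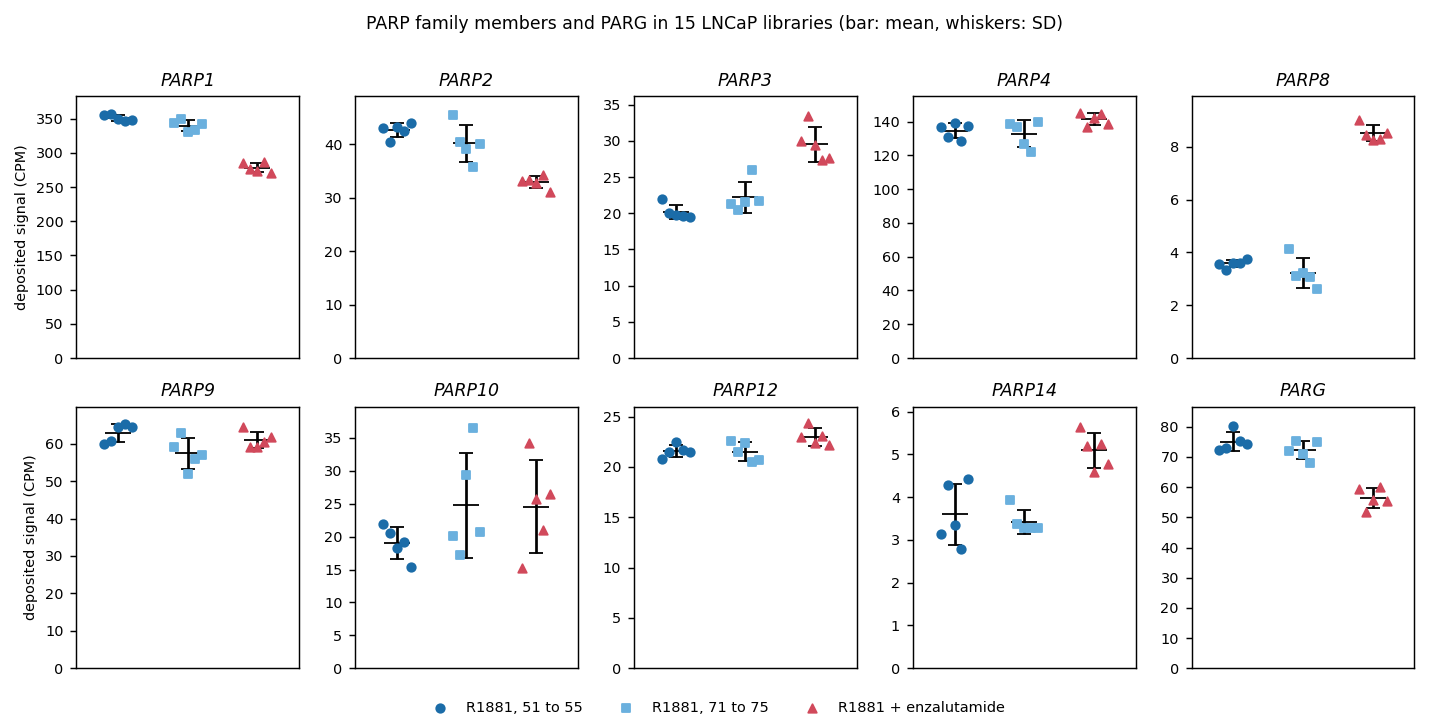
Deposited signal (CPM, vertical axes from 0) of the 10 members in each library, with R1881 libraries numbered 51 to 55 (circles), R1881 libraries numbered 71 to 75 (squares) and R1881 + enzalutamide libraries (triangles). Bars give the mean and whiskers the SD, and the triangles lie below all R1881 libraries for PARP1, PARP2 and PARG and above them for PARP3, PARP8 and PARP14.

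PARP1 (GRCh38 chr1:226360210-226408154, minus strand) encodes the enzyme that makes most of the poly(ADP-ribose) after DNA damage. It ranged from 331 to 357 CPM over the 10 R1881 libraries, with a median of 348 CPM. With enzalutamide, replicates 1 to 5 were at 285, 276, 274, 286 and 270 CPM. All 5 lay below the lowest R1881 library, and the median fell by 20.5%. The log2 fold change was -0.31 (SE 0.027, adjusted p = 2.7e-09, limma). In polyadenylated RNA from bulk cells, less RNA per cell and fewer cells with the transcript cannot be told apart. PARP1P1, a processed copy of PARP1 elsewhere in the genome with its own row, went from 13.3 ± 0.723 CPM with R1881 (SD, n = 10) to 10.7 ± 0.856 CPM with enzalutamide (SD, n = 5), and was likewise called lower (log2 fold change -0.30, adjusted p = 0.00016, limma), and reads may be split between such copies.

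PARP2 (chr14:20343615-20357904, plus strand) encodes the closest relative of PARP1 among the DNA break sensors. R1881 libraries ranged from 35.8 to 45.5 CPM with a median of 41.5 CPM. The R1881 + enzalutamide libraries were at 33.1, 33.3, 32.7, 34.3 and 31.1 CPM for replicates 1 to 5. The groups did not overlap, and the fall in the median, 20.1%, was close to that of PARP1. The log2 fold change was -0.33 (SE 0.049, adjusted p = 7.6e-06, limma). The gene overlaps a pair of long non-coding RNAs on the other strand, and the sources used here do not say whether counting used the strand.

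PARG (chr10:49818279-49970203, minus strand), the eraser of the chains, fell together with their writers. Its R1881 libraries ranged from 67.9 to 80.4 CPM with a median of 73.6 CPM, whereas R1881 + enzalutamide replicates 1 to 5 were at 59.4, 51.7, 55.6, 60.1 and 55.3 CPM. The median was 24.5% lower with enzalutamide, and again no library of one group reached into the other. The log2 fold change was -0.38 (SE 0.042, adjusted p = 8.4e-08, limma). PARGP1, a partial copy of PARG on the same chromosome, moved in the same direction, with 29.1 ± 2.28 CPM (SD, n = 10) in R1881 and 20.9 ± 1.46 CPM (SD, n = 5) under enzalutamide, with a log2 fold change of -0.46 (adjusted p = 7.5e-07, limma). PARG and PARGP1 are near-identical, so the split of reads between them is uncertain.

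The balance of eraser to writer was followed as the log2 ratio of PARG to PARP1 within each library, with 0.5 CPM added to each value. Apart from this addition, the ratio does not depend on library scaling. It was -2.22 ± 0.055 (SD, n = 10) with R1881 and -2.29 ± 0.066 (SD, n = 5) with R1881 + enzalutamide, and the ranges overlapped. The difference of -0.07 had a two-sided exact permutation p of 0.0426 over 3003 regroupings, and 0.0568 after adjustment over 4 ratios. The unadjusted exact p did not stay under 0.05 without R1881 + enzalutamide replicate 2, the library with the lowest ratio (-2.41). There the difference was -0.04 with an exact p of 0.171. The same held without R1881 replicate 3, 5, 7, 8, 9 or 10 and without R1881 + enzalutamide replicate 3 or 5. In these the exact p lay between 0.0544 and 0.0769. The ratio of PARG to PARGP1, chosen after values were seen, differed by 0.08 (exact permutation p = 0.0353, adjusted p = 0.0568), and leaving out R1881 replicate 3 or R1881 + enzalutamide replicate 2, 4 or 5 gave exact p between 0.0514 and 0.0839. With only the R1881 libraries 71 to 75 this difference was 0.05 (exact p = 0.206), and with only 51 to 55 it was 0.11 (exact p = 0.00794).

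PARP3 (chr3:51942345-51948867, plus strand), the third member activated by DNA breaks, moved opposite to PARP1 and PARP2. It ranged from 19.5 to 26.0 CPM with R1881, with a median of 20.8 CPM. The R1881 + enzalutamide replicates 1 to 5 were at 30.02, 33.4, 29.4, 27.4 and 27.6 CPM. The highest R1881 library, replicate 6, stood apart from the other R1881 libraries but below every R1881 + enzalutamide library. The median was 40.9% higher, with a log2 fold change of 0.47 (SE 0.063, adjusted p = 1.5e-06, limma).

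PARP8 (chr5:50665899-50846519, plus strand), a little-studied member that attaches single ADP-ribose units, showed the largest change among the 10. It was low in every library, with 51 to 217 reads. R1881 libraries ranged from 2.61 to 4.13 CPM with a median of 3.47 CPM, and the R1881 + enzalutamide replicates were at 9.03, 8.47, 8.28, 8.31 and 8.51 CPM. The lowest treated library (8.28 CPM) lay well above the highest R1881 library (4.13 CPM). The fitted change was 2.32-fold (log2 fold change 1.22, SE 0.083, adjusted p = 4.8e-11, limma), and a rise of at least this size was seen in 2.09% of all genes tested. Because 0.5 CPM was added before taking logs, this value understates the change of a low gene, and it was 1.37 with edgeR and 1.35 with DESeq2 on the recovered reads.

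PARP14 (chr3:122680839-122730840, plus strand) encodes a large macrodomain protein that attaches single ADP-ribose units and acts in interleukin-4 and interferon signalling. It was as low as PARP8, with 52 to 122 reads per library. R1881 libraries ranged from 2.78 to 4.43 CPM with a median of 3.32 CPM. The R1881 + enzalutamide replicates 1 to 5 were at 5.63, 5.21, 4.59, 5.25 and 4.78 CPM. The groups came within a small distance of each other without overlapping, and the log2 fold change was 0.49 (SE 0.093, adjusted p = 0.00012, limma).

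PARP9 and PARP12 carry the same response element core as PARP14, and neither passed the test. PARP9 (chr3:122527924-122564577, minus strand), a macrodomain protein without catalytic activity of its own in most assays, ranged from 52.0 to 65.1 CPM with R1881 and was at 64.4, 59.07, 59.04, 60.4 and 61.8 CPM with R1881 + enzalutamide. All 5 treated libraries lay inside the R1881 range. The log2 fold change was 0.02, with a 95% interval from -0.08 to 0.12 (adjusted p = 0.72, limma). PARP12 (chr7:140023749-140062951, minus strand), a zinc finger protein with antiviral activity, ranged from 20.4 to 22.6 CPM with R1881 and was at 22.9, 24.3, 22.3, 23.0 and 22.2 CPM with R1881 + enzalutamide. Its log2 fold change was 0.09 (SE 0.042, adjusted p = 0.072, limma), and the groups overlapped. PARP12 did pass the test under 6 other treatments of the data, given after the values of PARP10.

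PARP14 and PARP9 lie on the same arm of chromosome 3 and were compared within libraries, as a ratio chosen after their values were seen. The log2 ratio of PARP14 to PARP9 was -3.93 ± 0.199 (SD, n = 10) with R1881 and -3.46 ± 0.086 (SD, n = 5) with R1881 + enzalutamide. The difference of 0.47 had an exact permutation p of 0.000666 (adjusted p = 0.0027 over 4 ratios), where the smallest p that 3003 regroupings allow is 0.000333. PARP9 and DTX3L, whose proteins form a ubiquitin ligase complex, were compared in the same way. DTX3L was at 76.7 ± 2.53 CPM (SD, n = 10) with R1881 and at 79.5 ± 3.73 CPM (SD, n = 5) with R1881 + enzalutamide, and the log2 ratio of PARP9 to DTX3L differed by -0.03 (exact permutation p = 0.507). The direction of this last difference turned when only the R1881 libraries 71 to 75 were used. The PARP9 and DTX3L genes overlap on opposite strands.

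PARP4 (chr13:24420931-24512778, minus strand), the catalytic protein of the vault particle, ranged from 122 to 140 CPM with R1881 and was at 145, 137, 142, 145 and 139 CPM with R1881 + enzalutamide. The log2 fold change was 0.08 (SE 0.036, adjusted p = 0.052, limma), just above the threshold. It passed when R1881 replicate 2, 7, 8 or 10 or R1881 + enzalutamide replicate 2 was left out, with adjusted p between 0.040 and 0.048, so that the position of PARP4 relative to the threshold rests on single libraries. Its copies PARP4P2 and PARP4P1 were not called (log2 fold change 0.09 and -0.03).

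PARP10 (chr8:143977153-144012772, minus strand), which attaches single ADP-ribose units and binds MYC, varied more than any other member. R1881 libraries ranged from 15.4 to 36.5 CPM with a median of 20.3 CPM, and R1881 + enzalutamide libraries were at 15.2, 34.2, 25.7, 21.0 and 26.5 CPM. Its coefficient of variation was 28.8% in R1881 libraries and 28.7% in R1881 + enzalutamide libraries, beside 2.43% to 14.9% and 2.51% to 8.20% for the other 9 members. The log2 fold change was 0.16 (SE 0.173, adjusted p = 0.45, limma), with a 95% interval from -0.20 to 0.52, so that a rise as large as that of PARP3 could not be told from none. Single libraries moved this value, to 0.02 without R1881 + enzalutamide replicate 2, to 0.31 without R1881 + enzalutamide replicate 1 and to 0.24 without R1881 replicate 6, and it was not called in any of these. PARP10 transcripts had a GC content of 65.9%, at percentile 98.6 of the genes with a value. In 3 libraries, R1881 replicates 5 and 6 and R1881 + enzalutamide replicate 2, the deviation of a gene from its group mean rose most with GC content (Spearman's rho across 13665 genes of 0.58, 0.74 and 0.72), and these same libraries held the 3 highest values of PARP10 (29.3, 36.5 and 34.2 CPM). R1881 replicate 6 and R1881 + enzalutamide replicate 2 were also the highest of their groups for PARP3, whose GC content of 58.0% was the next highest among the members. After each library was corrected for its GC trend, PARP10 was called higher (log2 fold change 0.21, adjusted p = 0.0081, limma). Without those 3 libraries the counts of members called lower and higher were again 3 and 3. PARP10 overlaps GRINA and SPATC1 on the opposite strand.

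The calls of PARP4 and PARP12 changed with the scaling of the libraries and with the test. Both were called higher, making 5 members higher, with TMM factors (31.2% of all genes higher), with median-ratio factors (30.7%), with edgeR on the recovered reads (34%) and with DESeq2 on the recovered reads (30.5%). With library totals set to 1000000 (39% of all genes higher) PARP9 joined them, and with the GC trend removed (37.8%) PARP10 did. PARP1, PARP2 and PARG were the 3 members lower in each of these, where the shares of all genes called lower were 31.5% with TMM factors, 31.9% with median-ratio factors, 29.0% with edgeR, 31.4% with DESeq2, 25.2% with equal totals and 35.8% with the GC trend removed.

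**Figure D2:**
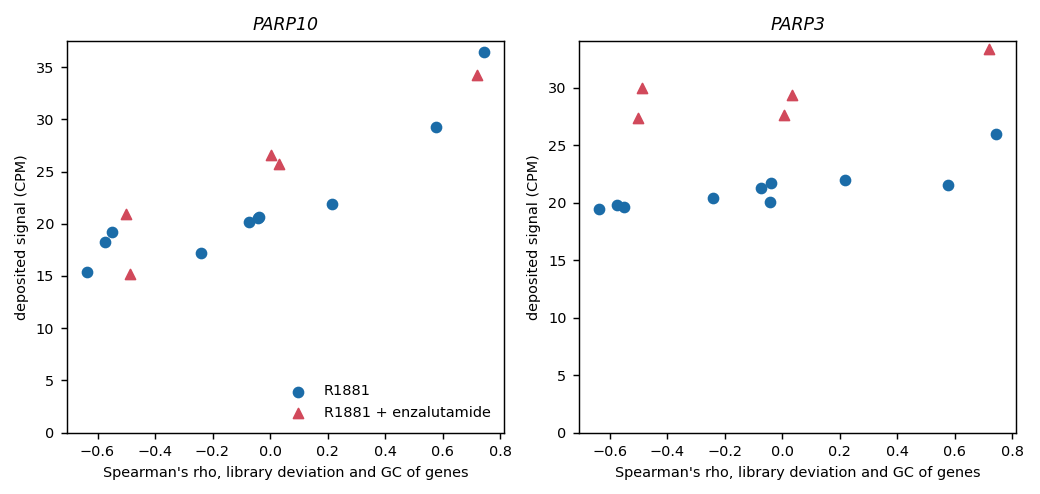
Deposited signal (CPM) of PARP10 and PARP3 in each library, against Spearman's rho between a library's deviations from its group mean and the GC content of 13665 genes, for R1881 (circles) and R1881 + enzalutamide (triangles). PARP10 is highest in the 3 libraries with rho above 0.5 in both groups, while for PARP3 every triangle lies above every circle, including at similar rho.

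Levels were compared between genes only after division by the length of the canonical transcript in GENCODE v44. With R1881, PARP1 was far above the other members at 86.9 ± 2.11 CPM per kb (SD, n = 10). PARP4 (24.6 CPM per kb), PARP2 (22.7), PARP9 (19.7) and PARG (17.2) followed, and each of these neighbours overlapped with the next over libraries. PARP3 was at 9.06 CPM per kb, above PARP12 (7.13) and PARP10 (6.25), which overlapped with each other. PARP14 (0.456) and PARP8 (0.455) closed the order and overlapped. With enzalutamide the order changed in a pair of places. PARP9 (20.01 CPM per kb) stood above PARP2 (18.0) without overlap, and PARP8 (1.14) stood above PARP14 (0.662), again without overlap. PARG (13.1) and PARP3 (12.6), separated with R1881, overlapped with enzalutamide.

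Summed over the 9 PARP genes, the level per length was 177 ± 3.27 CPM per kb (SD, n = 10) with R1881 and 163 ± 2.78 CPM per kb (SD, n = 5) with R1881 + enzalutamide. The groups did not overlap on the deposited scale, but the totals of the deposited columns differed too. They ran from 1053406 to 1078567 in R1881 libraries, above the 985580 to 1008992 of the R1881 + enzalutamide libraries. With every library set to a total of 1000000, the sums were 166 ± 2.43 and 163 ± 3.28 CPM per kb and overlapped. The composition of the sum does not depend on this scaling. PARP1 made up 49.0% ± 0.612 (SD, n = 10) of it with R1881 and 42.9% ± 0.805 (SD, n = 5) with R1881 + enzalutamide. PARP3 went from 5.12% ± 0.523 to 7.75% ± 0.551 and PARP8 from 0.257% ± 0.030 to 0.699% ± 0.025, without overlap in any of the 3. No test was run on these shares.

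**Figure D3:**
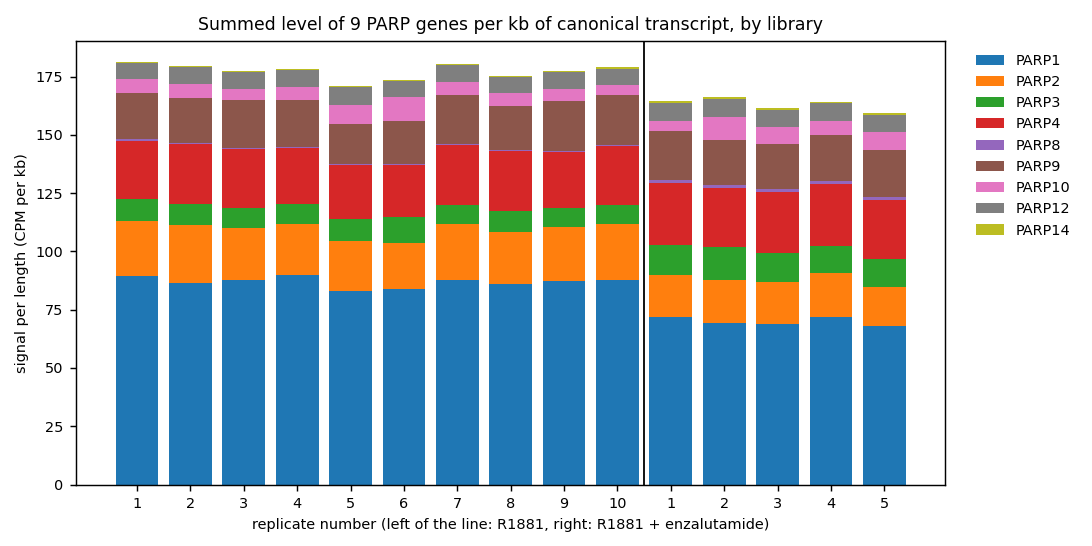
Stacked signal per length (CPM per kb of canonical transcript, from 0) of the 9 PARP members in each library, with the 10 R1881 libraries left of the line and the 5 R1881 + enzalutamide libraries right of it. The PARP1 segment is the largest in all 15 libraries and lower in all 5 treated ones, 70.0 beside 86.9 CPM per kb on average.

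Of the other PARP family genes, 6 had a row and PARP6 and PARP15 had none. TIPARP, also named PARP7 and known as a target of the androgen and aryl hydrocarbon receptors, fell the most, with 46.2 ± 4.26 CPM (SD, n = 10) in R1881 and 11.4 ± 1.28 CPM (SD, n = 5) in R1881 + enzalutamide libraries. Its log2 fold change of -1.98 (SE 0.071, adjusted p = 9.6e-16, limma) was matched or exceeded in size by 1.68% of all genes. ZC3HAV1, the catalytically inactive antiviral zinc finger protein PARP13, fell from 159 ± 10.1 to 121 ± 6.43 CPM (log2 fold change -0.40, adjusted p = 2.0e-07, limma). Both tankyrases, which make chains that mark AXIN and other proteins for degradation, rose. TNKS went from 72.0 ± 4.85 to 88.9 ± 6.30 CPM and TNKS2 from 94.9 ± 6.82 to 130 ± 7.67 CPM, with log2 fold changes of 0.30 and 0.45 (adjusted p = 3.0e-05 and 1.5e-07, limma). PARP11 (log2 fold change -0.05) and PARP16 (-0.11), which attach single units, did not pass the test.

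**Figure D4:**
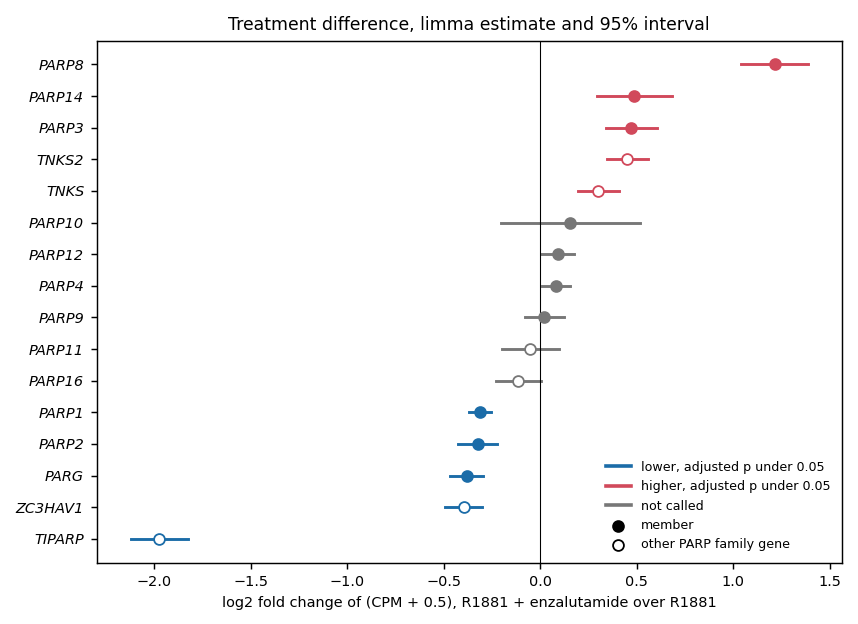
Fitted log2 fold change of (CPM + 0.5) for R1881 + enzalutamide over R1881 with its 95% interval, for the 10 members (filled) and 6 other PARP family genes (open), coloured by the limma call at an adjusted p under 0.05. Estimates run from -1.98 for TIPARP to 1.22 for PARP8, and the interval of PARP10 is the widest.

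Other genes listed from general knowledge as ADP-ribose erasers moved in both directions. A place in this list does not show that the product, such as that of ADPRHL1, is an active enzyme. Of 9 tested, 2 fell, 4 rose and 3 did not pass, with a median log2 fold change of 0.15. The called share, 66.7%, was close to the 62.5% of all genes (32.7% lower and 29.8% higher). ADPRHL2, the current ADPRS or ARH3, which removes ADP-ribose from serine, fell (-0.34, adjusted p = 3.7e-06, limma), as PARG did. MACROD2 (0.41), a macrodomain hydrolase at only 0.928 to 1.39 CPM on average, and ADPRHL1 (0.33) rose. Among 5 cofactors and readers, 2 fell and 2 rose (80% called, beside the same 62.5% of all genes). CHD1L, a chromatin remodeller recruited by poly(ADP-ribose), fell from 64.6 ± 2.99 to 51.5 ± 2.66 CPM (log2 fold change -0.32). H2AFY, the macroH2A1 histone that binds ADP-ribose, was lower by a smaller step (-0.17), and RNF146, the ubiquitin ligase that reads the chains made by tankyrases, was higher (0.34). DTX3L was not called (0.05).

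The partners of PARP1 in the repair of DNA single-strand breaks were lower in 4 of 9 and higher in 1 of 9. The called share was 55.6%, beside 62.5% of all genes (32.7% lower and 29.8% higher). The falls were largest for FEN1, the flap endonuclease, with 76.3 ± 3.67 CPM (SD, n = 10) in R1881 and 29.6 ± 2.20 CPM (SD, n = 5) in R1881 + enzalutamide libraries, and for LIG1, DNA ligase 1, from 16.5 ± 1.51 to 9.15 ± 1.24 CPM (log2 fold changes -1.35 and -0.82). TDP1, which clears trapped topoisomerase 1 from DNA ends, rose from 50.5 ± 2.67 to 71.5 ± 4.23 CPM (0.50, adjusted p = 4.1e-09, limma). FEN1 is also one of 43 S phase genes, of which 41 fell and none rose (95.3% called). ATAD2 (-2.50), RRM2 (-1.69) and CDC6 (-1.60) were lowest in this list. The median log2 fold change of the S phase genes was -0.81, beside -0.31 for PARP1, -0.33 for PARP2 and -0.38 for PARG. The part of a change in cycling cells in the falls of these 3 members was not tested.

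Genes that supply NAD+, the substrate of all PARP enzymes, were lower in 2 and higher in 5 of 9. The called share was 77.8%, beside 62.5% of all genes (32.7% lower and 29.8% higher). NAMPT, the rate-limiting enzyme of NAD+ salvage, fell from 255 ± 17.9 to 186 ± 7.66 CPM (log2 fold change -0.45, adjusted p = 2.6e-08, limma). NMNAT2 (0.40) and NMRK1 (0.38), further enzymes of NAD+ synthesis, rose.

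Interferon-stimulated genes were examined beside PARP9, PARP12 and PARP14. Of 23 tested, 13 rose, 4 fell and 6 did not pass, with a median of 0.23. The called share was 73.9%, beside 62.5% of all genes (32.7% lower and 29.8% higher). The largest changes were rises of IRF1, an interferon-regulated transcription factor, from 2.52 ± 0.431 CPM (SD over 10 libraries) to 5.66 ± 0.353 CPM (SD over 5), of DDX58, the RNA sensor RIG-I, from 6.50 ± 0.768 to 13.0 ± 1.01 CPM, and of IFIT2, an antiviral effector, from 3.21 ± 0.320 to 6.56 ± 0.588 CPM. Their log2 fold changes were 1.04, 0.96 and 0.93. PARP14 (0.49) lay above this median, and PARP9 (0.02) and PARP12 (0.09) lay below it. With library totals set to 1000000, no called gene of these lists turned direction, and among the S phase genes TIPIN and CASP8AP2 lost their calls.

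**Figure D5:**
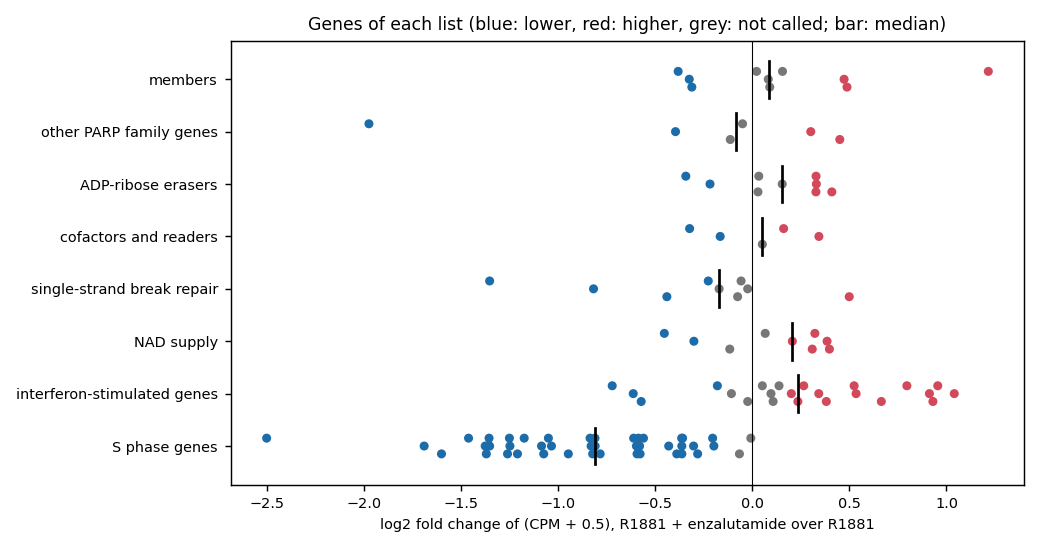
Fitted log2 fold change of (CPM + 0.5), R1881 + enzalutamide over R1881, for each tested gene of the members and of 7 related lists. Points are blue where lower and red where higher at an adjusted p under 0.05 and grey otherwise, and bars mark list medians, from -0.81 for S phase genes to 0.23 for interferon-stimulated genes.

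The 10 R1881 libraries fell into 2 runs of library numbers, 51 to 55 and 71 to 75, whereas the treated libraries carried numbers 81 to 85. The sources used here do not say what these runs stand for. No run held both treatments, so a run and the treatment cannot be told apart. Within R1881, 71 to 75 against 51 to 55, none of the 10 members was called by limma (lowest adjusted p = 0.14), by edgeR or by DESeq2, while 3.17% of all genes were called by limma and 3.36% by edgeR. At an unadjusted p under 0.05 it was 1 member, PARP9, beside 23.9% of all genes. The differences between these runs ranged from -0.14 for PARP8 to 0.32 for PARP10 on the log2 scale. For PARP1, PARP2, PARG, PARP3, PARP8 and PARP14 the difference between runs was smaller than that between treatments (0.05 to 0.14 in size, beside 0.31 to 1.22). These members had passed the treatment test, which favours this outcome. Of the others, the run difference was larger for PARP9 (-0.13 beside 0.02) and PARP10 (0.32 beside 0.16). It was smaller for PARP4 (-0.02 beside 0.08) and PARP12 (-0.005 beside 0.09). With either run alone as the R1881 group the same 3 members were lower and the same 3 higher.

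The libraries held between 15830745 and 25416052 counted reads. FKBP5, TMPRSS2 and KLK2, targets of the androgen receptor, were lower in every R1881 + enzalutamide library, with log2 fold changes of -4.99, -3.56 and -4.87. All 8 markers of luminal prostate cancer cells, KLK2 and TMPRSS2 among them, were present. With enzalutamide 5 of them were lower and 3 higher (100% called, beside 62.5% of all genes), with a median log2 fold change of -2.11. Of the markers of other cell types, KRT5 and TP63 of basal epithelium, COL1A2 and DCN of stroma and PTPRC, CD3E and CD68 of leukocytes had no row. KRT14 (basal) ranged from 0.706 to 1.44 CPM with R1881 and from 0 to 0.279 CPM with R1881 + enzalutamide. COL1A1 (stroma) ranged from 4.38 to 8.43 and from 7.45 to 12.3 CPM. The part of these shifts in the members' differences was not tested.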

How the data were processed

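Cells and treatments are as given by the sample labels. Per the labels, libraries were prepared with the TruSeq Stranded mRNA kit and read on a HiSeq2500 (single-end, 50 cycles). The authors used bcl2fastq 2.17 and featureCounts of Subread, after alignment to GRCh38 by STAR. Further versions, annotation, strand setting, gene filter and scaling were not given in the sources used here. Deposited values are a normalised signal per gene, which the methods call CPM. All values (100%) were whole multiples of 1 read within 0.01 reads, which gave back the counts. The design had assumed plain CPM, and the values were tested as deposited. No column lacked a sample. In 55 pairs of libraries of like treatment, counts differed by more than sampling noise (lowest chi-square per degree of freedom 1.62). Repeat reads of 1 library with sampling noise alone would not differ in this way. The check cannot tell repeat reads that differ for other reasons, and each library counted once. Whether the libraries came from separate cultures cannot be told from this check either.

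R1881 + enzalutamide (n = 5) was compared with R1881 (n = 10) by limma 3.58.1 in R 4.3.3, with a mean-variance trend, log2(CPM + 0.5), a mean of at least 0.5 CPM, no covariate, Benjamini-Hochberg adjustment over all genes tested and a threshold of 0.05. Ratios were compared by a two-sided exact permutation test. The statistic was tested on simulated data. Alternatives covered the pseudocount, the filter, the scaling, edgeR 4.0.16 and DESeq2 1.42.0 on the recovered reads, each R1881 run, a block, GC content (a spline with 5 degrees of freedom), a 1.5-fold limit and each library left out. The removal of 3 libraries, the alternatives for the runs, the sums at equal totals and the PARP14 to PARP9 and PARG to PARGP1 ratios were added after the data were seen. The members and lists were chosen with earlier results of these data known. S phase genes are those of Seurat 5.3.0, and the other lists were written from general knowledge. Named are all members, the other PARP family genes, from each list the 3 called genes with the largest change, DTX3L, 3 androgen targets and the 3 genes most like each of the 3 members with the largest change. Positions are from GENCODE v44, which gave GC content for 80.1% of genes. The number of libraries limits the precision, as does counting error for PARP8 and PARP14.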

Additional observations from a re-analysis of the deposited data

Results flagged for a closer look

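In the 10 R1881 libraries, the highest value of PARP3, 26.0 CPM in replicate 6, stood apart from the nearest library at 22.0 CPM. The gap made up 0.618 of the whole range, above the critical value of 0.466 for 10 samples. This was the only such case among 30 groups of values checked, where chance gives about 1.5. The same library had the highest rho between deviation and GC content (0.74). Without it, the log2 fold change of PARP3 was 0.51, beside 0.47 with all libraries.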

How the results depend on the processing

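The counts of 3 members lower and 3 higher were the same with pseudocounts 0.1 and 1, without a filter, with either R1881 run alone and without the 3 libraries highest with GC content. With a filter at 5 CPM, 3 members were lower and 3 higher, beside 4784 lower and 3513 higher of 12164 genes. PARP14 was not tested under this filter, and PARP4 was called in its place (adjusted p = 0.045, limma). PARP8 passed this filter only through the R1881 + enzalutamide libraries (mean 8.52 CPM, beside 3.40 CPM with R1881). Its call there adds no support. The number higher was 6 with library totals set to 1000000 (PARP4, PARP9 and PARP12 added) and 6 with the GC trend removed (PARP4, PARP10 and PARP12 added). It was 5 with TMM factors, with median-ratio factors, with edgeR and with DESeq2 (PARP4 and PARP12 added). With a change of at least 1.5-fold also required, 0 members were lower and 1 (PARP8) was higher. The share of all genes at this limit was not taken. With each library left out in turn, 3 members were lower and 3 to 4 higher. Of all 17046 genes, 5298 to 5662 were then lower and 4795 to 5202 higher. Library totals of 1000000 lowered the share of called genes that were lower from 52.3% to 39.3% and moved the median of all genes from -0.01 to 0.07.

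PARP9 turned to -0.045 with R1881 libraries 51 to 55 alone, to -0.0061 without the 3 libraries highest with GC content and to -0.0011 without R1881 replicate 5 (up to 0.035 with other single libraries left out), and PARP10 to -0.0069 with R1881 libraries 71 to 75 alone. The ratio of PARP9 to DTX3L turned to 0.030 with 71 to 75 alone. For the ratio of PARG to PARP1, the unadjusted exact p was above 0.05 with 51 to 55 alone (-0.074, exact p = 0.127). It was also above 0.05 with 71 to 75 alone (-0.067, exact p = 0.0873). The difference of this ratio ranged from -0.084 to -0.042 with each library left out. The causes were not tested. Libraries with the same replicate number did not deviate together (correlations of -0.07 to 0.07 for replicates 1 to 5), so replicate numbers showed no pairing. With a block for replicate number on these libraries, 3 members were lower and 3 higher. Whether the library numbers pair the samples in another way was not tested.

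The differences of the R1881 runs gave 0 members called in all 20 alternatives. At 52 to 122 reads, the spread of PARP14 limits what can be seen, and for PARP10 the 95% interval was wider than 0.7 on the log2 scale.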

Other observations

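The genes whose library-to-library pattern was most like that of PARP3, PARP8 and PARP14 were sought over the 15 libraries after centring log2(CPM + 0.5) within each run of library numbers, so that the treatment difference was taken out. Genes with a mean of at least 5 CPM were used, 12163 for PARP3 and PARP8 and 12164 for PARP14. For PARP3 these were NADSYN1, an enzyme of NAD+ synthesis (Pearson's r = 0.95), YBX1P2 (0.92) and FAM117A (0.92), whose GC contents were 55.3%, 55.8% and 59.4%, beside 58.0% for PARP3. For PARP8 they were BBS2 (0.82), MT-CO2 (0.79) and C9orf85 (0.78), and for PARP14 they were DCUN1D2 (0.85), TMEM45B (0.82) and GANAB (0.81). In the same order, Spearman's rho was 0.85, 0.65 and 0.81 for PARP3. It was 0.625, 0.73 and 0.77 for PARP8 and 0.79, 0.70 and 0.81 for PARP14. The values of r are the highest of 12163 or 12164 over the same 15 libraries. Differences of these libraries in depth and GC trend are common to both genes of a pair. All are given as a description only.

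APLF, a reader of poly(ADP-ribose) in DNA repair that was below the filter, was at 0 to 0.176 CPM in the R1881 libraries and at 0.465 to 1.18 CPM in the R1881 + enzalutamide libraries. The groups did not overlap, as in 37.2% of tested genes. No test was run on it at the filter used.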
